A study of Rattus norvegicus with 8 samples.

Results

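The enzymes that build heme in the liver were followed in rats made iron deficient by diet. The set held 7 genes, Alas1, Alad, Uros, Urod, Cpox, Ppox and Fech, chosen by name as steps of the pathway, out of 14217 named genes on the array. A probe set, the group of probes that reads 1 transcript, was taken as a member where the platform annotation paired it with exactly 1 of these symbols. This gave 8 probe sets of 31042, with 2 for Uros and 1 for each other gene. The third enzyme of the chain is not analysed here.

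All livers came from male Sprague-Dawley rats, an outbred strain, at 7 weeks of age, hybridised to 1 Affymetrix array each. Of these, 4 rats ate a purified diet from which the iron salt, ferric citrate, had been omitted, and 4 ate the same diet with it. The labels name no engineered allele and no drug for either group, and both had fed in a fixed daytime window for 4 days. Livers were taken on day 17 of the diet after a meal of 1.5 h, when blood hemoglobin in the iron-deficient group stood at 42% of the control level. The labels give 7 and 6 rats on the diets and call the arrays biological replicates, without saying which rats they came from.

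Heme is an iron-containing ring that carries oxygen in hemoglobin and does the chemistry of cytochromes. Its synthesis starts in the mitochondrion, where Alas1 joins glycine to succinyl-CoA, runs through the cytosol by way of Alad, Uros and Urod, and returns to the mitochondrion for Cpox, Ppox and Fech, which inserts iron. In liver Alas1 sets the rate and is repressed by heme itself, while red cell precursors use a separate gene, Alas2. The liver spends most of its heme on cytochrome P450 enzymes.

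The start regions of the first enzymes of the pathway are shown because Alas1, the rate-setting step, is a textbook target of NRF1, a factor that drives nuclear genes for mitochondria, and the Nrf1 transcript is among the genes described further on. Each sequence runs 5′ to 3′ from 250 bases before the RefSeq start of the gene to 20 bases after it, in the rat build GRCr8. Capitals in Alas1 mark the NRF1 core, the site GCGCA followed by its reverse complement. Capitals in Alad mark the E-box CACGTG and the GC box GGGCGG, read on both strands, with some GC boxes overlapping each other.
Alas1, chr8:115768623-115768892, minus strand: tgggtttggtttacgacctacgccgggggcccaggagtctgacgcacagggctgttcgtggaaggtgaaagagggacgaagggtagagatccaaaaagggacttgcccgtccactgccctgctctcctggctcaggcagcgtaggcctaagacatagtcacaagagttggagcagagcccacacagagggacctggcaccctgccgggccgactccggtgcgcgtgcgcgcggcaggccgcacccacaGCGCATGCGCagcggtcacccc
Alad, chr5:80987882-80988151, minus strand: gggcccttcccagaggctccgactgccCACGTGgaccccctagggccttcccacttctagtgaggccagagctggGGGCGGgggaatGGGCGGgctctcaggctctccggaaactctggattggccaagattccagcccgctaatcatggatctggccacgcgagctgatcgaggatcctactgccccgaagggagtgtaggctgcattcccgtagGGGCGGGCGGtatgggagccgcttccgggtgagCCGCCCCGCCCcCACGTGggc
A start region sequence was at hand for 6 of the 7 genes, all but Cpox. The NRF1 core occurred in Alas1 alone of the 6, and in 0.828% of 33469 promoters of the same length. The E-box occurred in Alad and Urod (6.02% of all promoters) and the GC box in Alad, Urod and Fech (31.7%). The GATA box AGATAA occurred in Fech alone of the 6 (10.8%), and the antioxidant response element TGACNNNGC in none of them (10.9%). These motifs were picked as known features of heme gene promoters, with the Alas1 and Alad sequences in view.

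No heme synthesis enzyme passed the test between the diets. In limma, a linear model that steadies each probe set's variance with all others, 0 of the 8 probe sets reached an adjusted p of 0.05, where 0.0322% of all probe sets did. At an unadjusted p under 0.05 there were 2, against 11.4% of all probe sets. The model without variance moderation also gave 0 past the adjusted threshold. Of the 8, 5 were lower and 3 higher in iron-deficient livers, but the split changed with scaling. Quantile normalization gave 5 higher, the same with the Hamp probe set left out gave 1, and centring each array on its median gave 6, where 47.9%, 32.6% and 92.1% of all probe sets were higher. The median difference was -0.485 within-group SDs, against -0.01 over all probe sets.

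Differences are given in SDs because the deposited values are compressed to an extent that is not the same for every probe set, so a difference on their log2 scale is not a fold change. The members show how uneven this is. The within-group SD was 0.0037 for Alas1, at the 99.0th percentile of all probe sets, and 8.05e-07 for Urod, at the 4.6th. Those of Alad (1.48e-04), Cpox (5.55e-05), Fech (1.91e-05) and Ppox (1.69e-05) lay between, and the 2 Uros probe sets had 2.24e-05 and 1.37e-06. All 8 had mean levels above the 25th percentile of the probe sets (6.55).

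**Figure D1:**
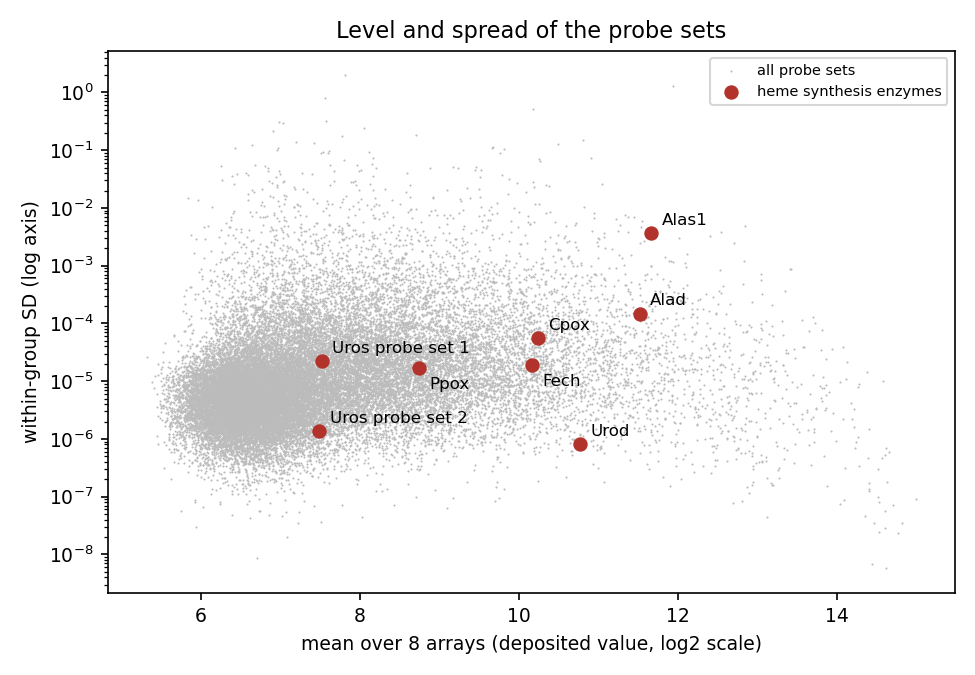
Mean deposited value over the 8 arrays on the log2 scale (x axis) against within-group SD on a log axis (y axis), with 31042 probe sets in grey and the heme synthesis enzymes in red. Alas1 has one of the widest spreads, 0.0037, and Urod one of the narrowest, 8.05e-07, so differences on the deposited scale cannot be compared between genes.

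Alas1, the rate-setting synthase, was lower in iron-deficient livers without passing the test. The 4 iron-deficient livers read 11.666, 11.670, 11.666 and 11.663 in replicates 1 to 4, and the 4 controls 11.671, 11.673, 11.678 and 11.668. All 4 iron-deficient values lay below the control mean and 3 of them below every control, while iron-deficient replicate 2 lay inside the control range. The difference was -0.00582 ± 0.0025 (SE, n = 4 per group), or -1.58 within-group SDs with a 95% interval from -3.2 to 0.04. The limma adjusted p was 0.452, and the exact permutation test gave a two-sided p of 0.0571, where the smallest possible is 0.0286. With each liver left out in turn the difference ranged from -2.19 to -1.29 SDs, and it was also lower under each scaling tried.

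Alad, which joins a pair of aminolevulinate molecules into porphobilinogen, differed by less than the spread between livers. In millionths of a log2 unit from the control mean, the iron-deficient livers lay at -89.8, 10.7, -323 and 92.1 and the controls at -41.5, -73.7, 161 and -45.7. The groups overlapped, with 2 iron-deficient livers on each side of the control mean. The difference was -0.52 SDs (95% interval -2.14 to 1.1, limma adjusted p = 0.836), and without iron-deficient replicate 3 it was 0.04. RefSeq lists a pseudogene, Alad-ps1, and whether the probes also read it was not tested.

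Uros, which closes the ring into uroporphyrinogen, was lower on 1 of its probe sets and near the control mean on the other. On the first, the iron-deficient livers lay at -52.8, -23.0, -38.3 and -46.1 millionths from the control mean and the controls at -37.1, 4.99, 33.3 and -1.16. Control replicate 1 lay among the iron-deficient values, and 3 of those 4 lay below every control. The difference was -1.79 SDs (95% interval -3.41 to -0.17), with a limma unadjusted p of 0.0352 and an adjusted p of 0.401. The exact permutation test gave a two-sided p of 0.0571. Without control replicate 1 it was -3.43 SDs (limma adjusted p = 0.2), and under median centring its sign turned (1.05e-05). The second probe set differed by -0.67 SDs (95% interval -2.69 to 1.36, limma adjusted p = 0.831), with iron-deficient livers at 0.491, -0.501, -2.33 and -1.31 millionths and controls at 1.45, -2.07, -0.0875 and 0.711. The groups overlapped on both probe sets, and whether the probe sets differ from each other was not tested.

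Urod, which trims uroporphyrinogen to coproporphyrinogen, had the smallest spread of the 8 probe sets on the deposited scale. The iron-deficient livers lay at -0.192, -0.142, -0.883 and -0.232 millionths from the control mean, and the controls at 0.538, -1.62, 0.637 and 0.447. The 4 iron-deficient values lay below 3 of the controls and above control replicate 2, the lowest of the 8. The difference was -0.45 SDs (95% interval -3.07 to 2.17, limma adjusted p = 0.928). Without control replicate 2 it was -3.27 SDs, with a limma adjusted p of 0.84, since limma replaces so small a spread by one nearer that of other probe sets.

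Cpox, the oxidase that turns coproporphyrinogen into protoporphyrinogen, was the 1 member whose groups did not overlap, as was the case for 6.48% of all probe sets (3.07% higher). The iron-deficient livers lay 182, 312, 223 and 147 millionths above the control mean, and the controls at 30.1, -41.8, -9.91 and 21.7. All 4 iron-deficient livers read higher than every control. The difference was 2.16e-04 ± 3.75e-05 (SE, n = 4 per group), or 3.89 SDs with a 95% interval from 2.27 to 5.51. The limma unadjusted p was 8.74e-04 and the adjusted p 0.137, from 0.117 to 0.964 over the alternatives. The exact permutation test gave its smallest possible two-sided p, 0.0286, unadjusted. It ranged from 3.51 to 5.26 SDs with each liver left out in turn. Cpox turned lower, at -0.23 SDs, under the quantile normalization that omitted Hamp. It was 0.65 SDs with Hamp included and 0.93 SDs under median centring. In log2 units these last differences were 2.41e-04 and 2.67e-04, no smaller than as deposited, so the within-group SD was what grew.

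**Figure D2:**
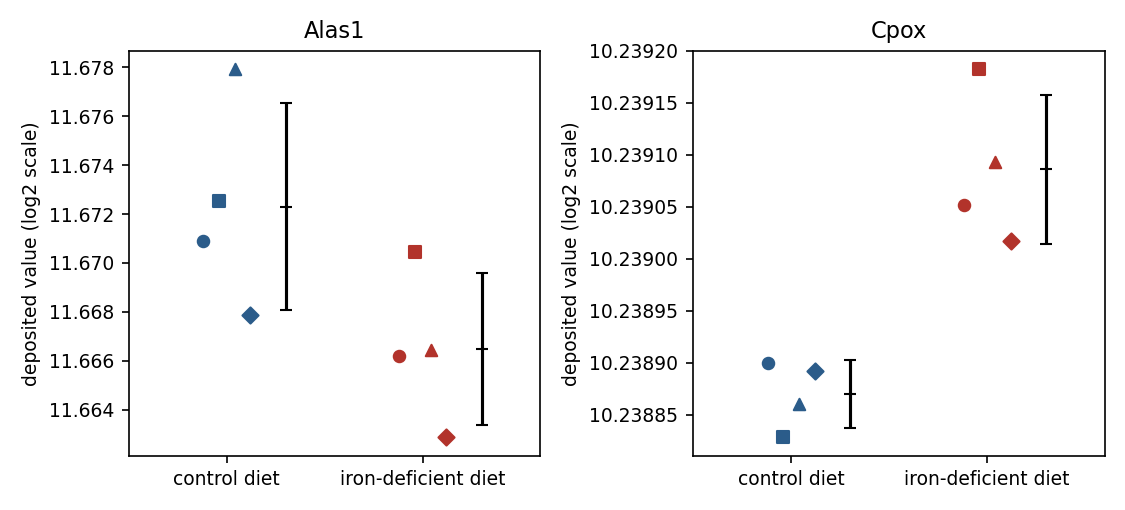
Deposited values on the log2 scale (y axes, each with its own range) of Alas1 and Cpox in each liver, by diet, with marker shapes for replicates 1 to 4 and bars for the group mean ± SD. For Alas1, 3 iron-deficient livers lie below every control, and for Cpox all 4 lie above every control, within a range that is far narrower.

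Ppox and Fech, the last enzymes of the chain, differed by less than the spread between livers. For Ppox, which oxidises the ring to protoporphyrin, iron-deficient livers lay at 11.9, 21.7, -10.8 and -4.31 millionths from the control mean and controls at 25.3, -19.6, -1.49 and -4.23. The difference was 0.27 SDs (95% interval -1.35 to 1.9, limma adjusted p = 0.929). For Fech, the ferrochelatase that inserts iron, iron-deficient livers lay at -8.81, 17.8, -19.3 and 17.9 millionths and controls at -19.8, -13.1, 19.0 and 13.9. The difference was 0.1 SDs (95% interval -1.52 to 1.72, limma adjusted p = 0.978). In both genes the groups overlapped over most of their range, with 2 iron-deficient livers on each side of the control mean. Their sign changed with single livers left out, from -0.12 to 1 SDs for Ppox and from -0.26 to 0.5 for Fech. The intervals still allow a difference of more than 1 SD either way.

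**Figure D3:**
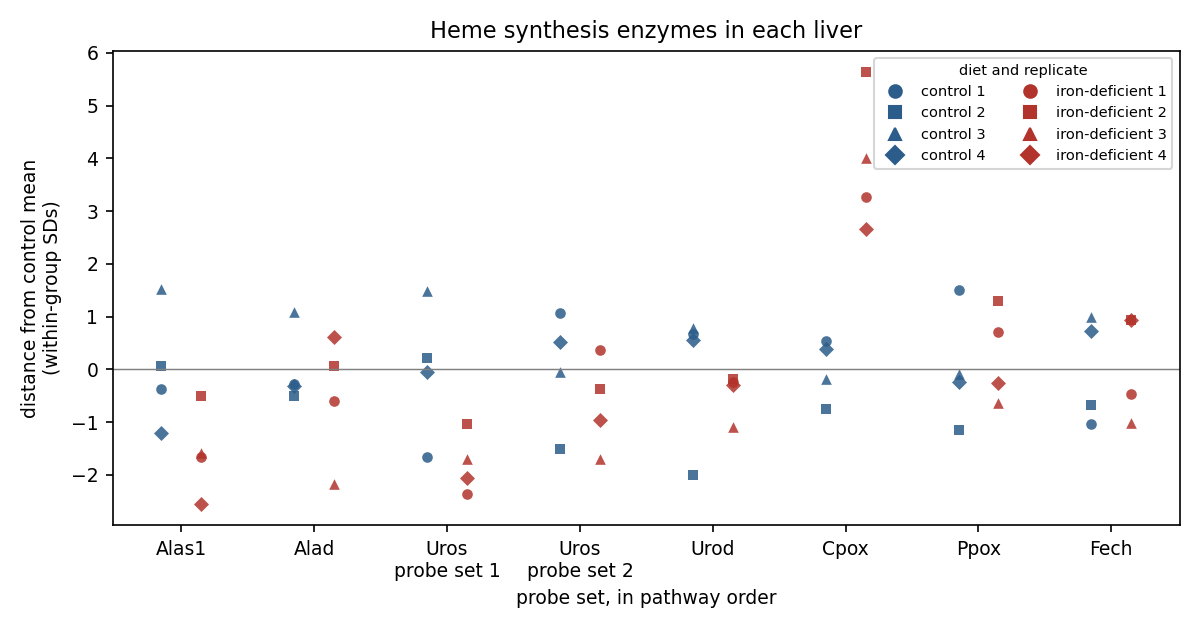
Each liver's distance from the control mean in within-group SDs (y axis) for the 8 probe sets in pathway order (x axis), with controls in blue, iron-deficient livers in red and marker shapes for replicates. The groups separate for Cpox, where iron-deficient livers lie 2.65 to 5.63 SDs above the control mean, and overlap for the 7 other probe sets.

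Some livers were high or low in several enzymes. Control replicate 3 was the highest of all 8 livers in 5 of the 8 probe sets, and control replicate 2 was the lowest of its group in 5. Among iron-deficient livers, replicate 2 was the highest of its group in 5 and replicate 3 the lowest in 5. How often these livers held such places over all probe sets was not counted. Iron-deficient replicate 2 was also the liver with the highest transcript of the iron hormone hepcidin in its group, with a Hamp value of 10.58 where the others read 6.98, 6.99 and 6.93. Without it, the groups did not overlap for 3 of the 8 probe sets, against 9.77% of all probe sets with the same array left out. Without control replicate 1, 2 or 4 there were 2, against 13.4%, 8.7% and 11.4% of all probe sets. Without iron-deficient replicate 1, 3 or 4, 1 probe set had an unadjusted limma p under 0.05, against 11.2%, 10.5% and 9.79% of all probe sets. The same number did without control replicate 2 or 3, against 8.64% and 8.4%.

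**Figure D4:**
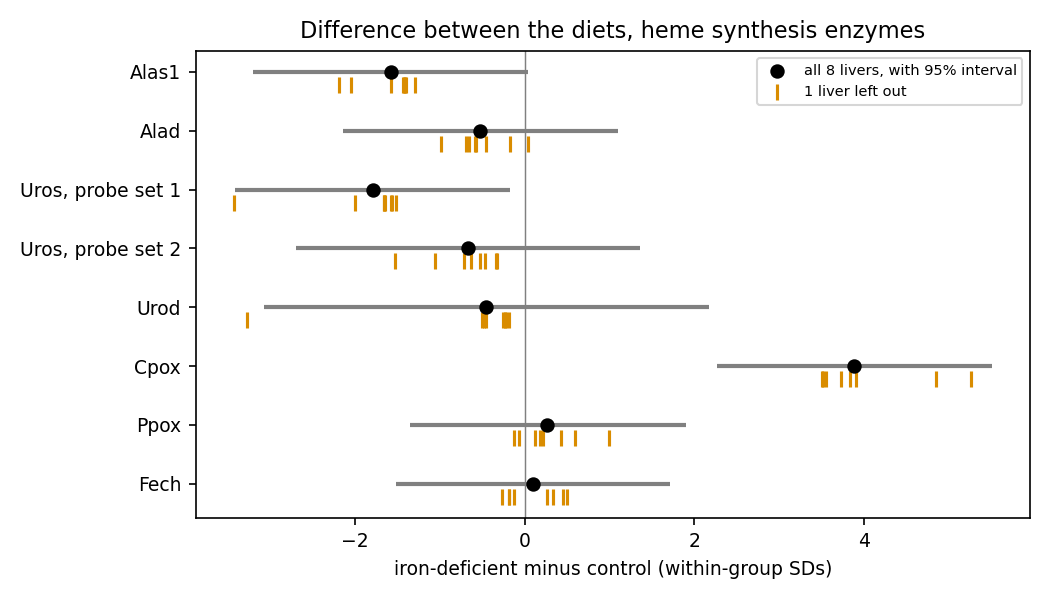
Difference between the diets in within-group SDs (x axis) for the 8 probe sets, with black points for all 8 livers, grey bars for the 95% interval from limma and orange ticks for each liver left out in turn. The intervals of Cpox and the first Uros probe set lie off 0, and those of the other 6 include it.

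Alas2, the erythroid counterpart of Alas1, read 8.190, 8.179, 8.184 and 8.194 in iron-deficient livers and 8.175, 8.176, 8.175 and 8.189 in controls. Of the iron-deficient livers, all 4 lay above 3 of the controls and 2 above control replicate 4. The difference was 0.00799 ± 0.00445 (SE, n = 4 per group), or 1.21 SDs (limma adjusted p = 0.561). It is described here for its role, outside the rule by which other genes were named, and whether its difference and that of Alas1 differ was not tested.

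Genes that serve the pathway from outside, such as carriers of iron, glycine and porphyrins, proteases that act on Alas1 and suppliers of succinyl-CoA, gave no call either. Of 22 listed, 20 were measured, 7 higher and 13 lower, with 0 past the adjusted threshold in limma, against 0.0422% of all genes. Unadjusted, 3 had a p under 0.05 (13.2% of all genes, 7.5% lower), and the same number did not overlap (7.82%, 4.4% lower), all of them lower. The median difference was -0.385 SDs, against -0.07 over all genes. The split changed with scaling here, and 14, 6 and 19 were higher under quantile normalization, the same without the Hamp probe set, and median centring, and 3, 0 and 0 passed. Over all genes 56.5%, 36.1% and 90.8% were higher and 5.47%, 0.373% and 0.267% passed. Suclg1, a subunit of the enzyme that interconverts succinyl-CoA and succinate, read -5.74e-06 ± 9.41e-07 (SE, n = 4 per group), or -6.09 SDs (limma adjusted p = 0.127). Slc25a28, a mitochondrial iron importer, read -2.4e-05 ± 6.11e-06, or -2.68 SDs (0.25). Lonp1, a mitochondrial protease, read -1.08e-05 ± 3e-06, or -2.51 SDs (0.277), while its other probe set read 0.78 SDs. Under median centring, which shifts every difference by the same amount, all 3 turned higher. Suclg1 (limma adjusted p = 1.03e-05) and Lonp1 also did so under quantile normalization. That p for Suclg1 goes with almost no spread within the groups after this scaling. With the Hamp probe set left out, the Suclg1 difference was -4.97e-16.

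Factors known to govern Alas1, with the heme oxygenases that lower free heme, were 15 of 15 measured, 6 higher and 9 lower. None passed the adjusted threshold in limma. At an unadjusted p under 0.05 there were 2, against 13.2% of all genes (7.5% lower), and 2 did not overlap, against 7.82% (4.4% lower), all of them lower. Their median was -0.15 SDs. Under the 3 scalings 10, 3 and 11 were higher, against 56.5%, 36.1% and 90.8% of all genes. Past the threshold were 2, 0 and 0 of these factors, against 5.47%, 0.373% and 0.267% of all genes. Nrf1 read -9.99e-06 ± 2.4e-06 (SE, n = 4 per group), or -2.93 SDs (limma adjusted p = 0.233), with iron-deficient livers below every control. Its other probe sets read -0.54 and 0.64 SDs. Hmox2, the constitutive heme oxygenase, read -2.3 SDs (0.304), and Foxo1, a factor restrained by insulin, -1.17 SDs (0.577). Nrf1 turned higher under median centring, and Hmox2 under both forms of quantile normalization.

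The list of liver heme proteins also held Uqcrh, a respiratory chain subunit that carries no heme itself. Of the 29 genes listed, 25 were measured, 19 higher and 6, with Uqcrh among them, lower. None passed the adjusted threshold in limma as deposited. At an unadjusted p under 0.05 there were 5 higher and 1 lower, against 5.74% and 7.5% of all genes. In 6 the groups did not overlap, 5 of them higher, against 3.42% of all genes higher. Their median was 0.62 SDs. Under the 3 scalings 25, 14 and 24 were higher, against 56.5%, 36.1% and 90.8% of all genes. Past the threshold were 15, 1 and 2, against 5.47%, 0.373% and 0.267% of all genes. The fall from 15 to 1 came with leaving out the Hamp probe set, and the listed genes were not matched to all genes by level. Cyp1a2, a cytochrome P450 that oxidises caffeine and many drugs, read 11.624, 11.620, 11.624 and 11.624 in iron-deficient livers and 11.603, 11.598, 11.609 and 11.605 in controls. All 4 iron-deficient livers lay above every control, and the group means differed by 5.43 SDs (0.0194 ± 0.00242, SE, n = 4 per group, limma adjusted p = 0.0735). It passed under quantile normalization (limma adjusted p = 0.00204), the same without the Hamp probe set (0.0467) and median centring (0.00121). Cyp51, a P450 of cholesterol synthesis, differed by 4.02 SDs (limma adjusted p = 0.131) and by 2.64 on its other probe set, and passed under quantile normalization (6.89e-04) and median centring (0.00754). Cygb, a globin of stellate cells, differed by 2.48 SDs (limma adjusted p = 0.276).

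**Figure D5:**
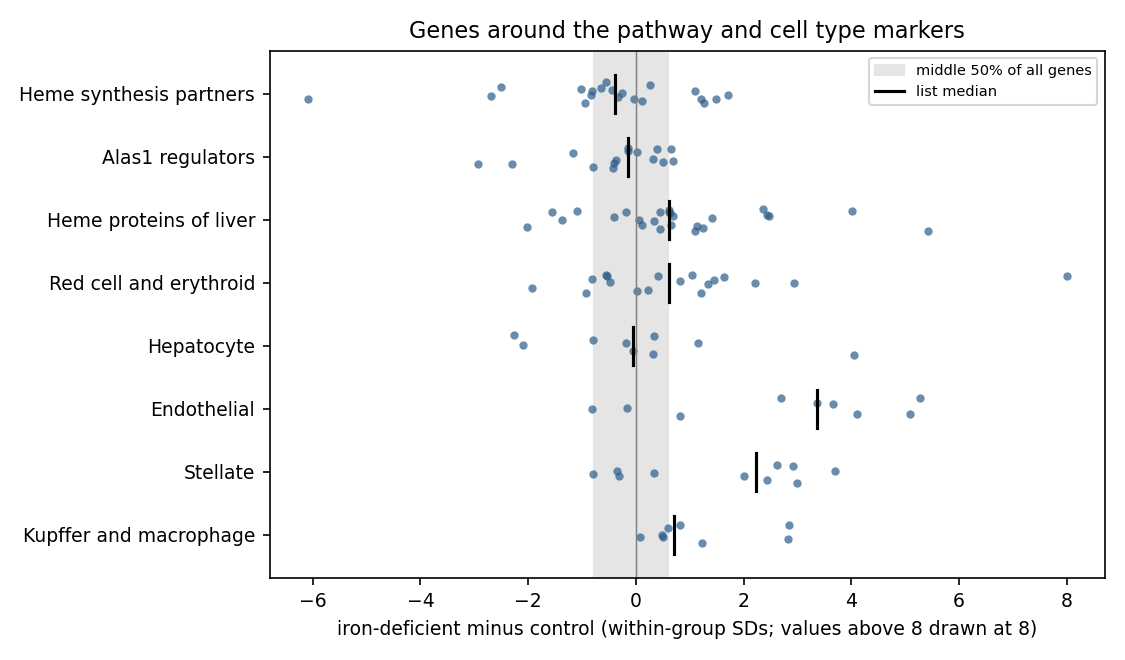
Difference between the diets in within-group SDs (x axis, values above 8 drawn at 8) for each measured gene of 3 lists around the pathway and 5 lists of cell type markers (y axis), with black bars for list medians and a grey band from -0.78 to 0.6 for the middle of all genes. Medians of the partner and regulator lists (-0.385 and -0.15) lie inside the band, those of the heme proteins (0.62), red cell (0.62) and Kupffer (0.705) markers just past its edge, and those of endothelial (3.37) and stellate (2.22) markers above it.

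Markers of the cells in a liver sample were read beside these results. In whole tissue, fewer cells of a type and less RNA per cell cannot be told apart. Hepatocyte markers, 9 of 10 measured and all above the 25th percentile, summed to 124.0 to 124.002 on the log2 scale in iron-deficient livers and 124.0 to 124.001 in controls. That sum was led by Tat, which differed by 8.98e-04 where the other hepatocyte markers differed by at most 2.45e-05. It therefore says little about the amount of hepatocyte RNA. Red cell and erythroid markers, 18 of 23 measured, summed to 142.713 to 142.746 and 142.68 to 142.721. Of these 12 were higher and 6 lower, 1 passed in limma, Tfrc, and Hbe1 and Rhag lay below the 25th percentile. The globins Hba-a3 and Hbb read -0.92 and -0.47 SDs, and the globin Hbe1 1.34 SDs, so the Tfrc call does not stand for the list. Sums did not overlap for endothelial markers (9 measured, 81.771 to 81.773 against 81.766 to 81.767), stellate markers (10, 78.036 to 78.042 against 78.031 to 78.034) and Kupffer cell markers (8, 76.376 to 76.382 against 76.372 to 76.375). Such sums follow the markers whose values are least compressed. Without Lyz2, which differed by 0.00597 where the other Kupffer markers differed by at most 1.66e-04, the Kupffer sums overlapped (66.7541 to 66.7549 against 66.7537 to 66.7545). Gene by gene, all 8 Kupffer markers were higher, where 47% of all genes were. In 2 of them, Lyz2 (2.84 SDs) and Mrc1 (2.82 SDs), the groups did not overlap, against 3.42% of all genes higher. The red cell sum was led by Tfrc (0.0373), and without it the ranges still overlapped (131.6911 to 131.7291 against 131.699 to 131.7411). Endothelial sums without Flt1 stayed apart (74.6187 to 74.6203 against 74.615 to 74.6166). Stellate sums without Dcn did too (70.8728 to 70.8766 against 70.8684 to 70.8714). Flt1 differed by 0.00246 and the next endothelial marker by 0.00225, Dcn by 0.00276 and the next stellate marker by 0.00226. A marker of nearly the same difference thus stayed in each sum, so these sums cannot show whether the rest of the list moved. Cholangiocyte markers (5 of 6 measured) summed to 35.321 in every liver at this precision. The part of any of these in the values of the enzymes was not tested.

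Patterns like those of Alas1 and Cpox were sought over 14216 other genes by the mean absolute difference of z-scores across the 8 arrays. Closest to Alas1 were Hbs1l (0.174), Ankrd27 (0.182) and Letmd1 (0.185), where the median gene was at 1.05. Closest to Cpox were Armcx4 (0.143), Pgam1 (0.167) and Zan (0.197), where the median was 1.1. Among the enzymes, the first Uros probe set was nearest to Alas1 (0.421, rank 215) and Cpox the farthest (1.48, rank 13754).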

How the data were processed

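Per the labels, total RNA (2 ug) of each liver gave biotin-labelled cRNA for an Affymetrix rat array. The values, deposited on what their range (5.32 to 16.1) shows to be a log2 scale, number 1 per probe set and array. Probe summary and normalization by the authors are not given in the sources used here. Array medians ran from 7.1195 to 7.1205. Of 31099 probe sets, 57 controls were left out. Of the other 31042, 20826 had 1 symbol, 436 several and 9780 none, with 20758 probe sets matched to RefSeq by gene identifier. For genes outside the 7 members the probe set of highest mean stood for the gene.

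The diets were compared in limma (version 3.58.1, R 4.3.3) by its lmFit and eBayes functions at their defaults and with no block, with Benjamini-Hochberg adjustment over all probe sets and a threshold of 0.05. The fit was tested on simulated data with independent noise and no scaling difference between arrays. That run cannot tell how scaling affects the results here. The standardised difference is the difference divided by the probe set's own within-group SD. Exact permutation tests covered all 70 splits of the 8 arrays. Members, lists and tests were chosen with earlier results of these data known. From each list of other genes, up to 4 past the threshold were to be named, or otherwise the 3 with the smallest p. Genes of Alas1's and Cpox's pattern were the 3 nearest. The number of arrays limits the precision, and the p-values measure the spread between these livers. Alternatives were quantile normalization with and without the Hamp probe set, median centring, a filter on the lowest 25% of probe sets, other variance models, a replicate block and each array left out.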

Additional observations from a re-analysis of the deposited data

Results flagged for a closer look

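Of 34 groups of 4 livers examined for the members and the named genes of the lists, 5 held a liver that stood apart, where chance flags about 1 in 20. The measure is the gap to the nearest other liver divided by the range of the group. For Urod, control replicate 2 lay low (0.916) and iron-deficient replicate 3 lay low (0.878). For Alad, control replicate 3 lay high (0.863). Iron-deficient replicate 2 lay low for Cygb (0.903) and for Cyp1a2 (0.842).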

How the results depend on the processing

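No member probe set passed the adjusted threshold under any alternative run. Under quantile normalization, the same with the Hamp probe set left out, and median centring, the members with an unadjusted p under 0.05 were 1, 1 and 1. Of all probe sets 16.9%, 11.5% and 1.88% had such a p. Members without overlap were 0, 0 and 0, against 6.45%, 3.02% and 0.573%. All probe sets past the threshold were 1093, 84 and 63. With each array left out in turn these 3 counts ranged from 1 to 3, 1 to 3 and 4 to 27. The last was 5 and 27 without iron-deficient replicates 2 and 3, against 10 with all. It was 4 without iron-deficient replicate 4 or control replicate 3, and 6 without control replicate 2. The shares of all probe sets with such a p and without overlap ranged from 8.4% to 13.7% and from 8.69% to 13.4%. Signs turned under quantile normalization for Alad (3.89e-04), Urod (3.89e-04), Suclg1 (1.86e-04), Lonp1 (5.72e-04) and Hmox2 (3.86e-04). With the Hamp probe set left out they turned for Cpox (-1.09e-04), Fech (-9.06e-04) and Hmox2 (9.08e-05). Under median centring they turned for both Uros probe sets (1.05e-05 and 4.97e-05), Urod (5.02e-05), Suclg1 (4.48e-05), Slc25a28 (2.66e-05), Lonp1 (3.98e-05) and Nrf1 (4.06e-05), which follows from a constant added to every difference. The cause of the other changes was not tested. With single arrays left out, differences ranged from -1.34e-04 to 4.33e-06 for Alad, -1.88e-06 to 1.31e-05 for Ppox and -4.71e-06 to 8.96e-06 for Fech. Same-numbered livers showed little tendency to deviate together (correlations from -0.1111 to 0.0245). So few arrays cannot settle whether the numbers pair them. With the replicate number as a block, 1 probe set passed. Under that model 3 member probe sets had an unadjusted limma p under 0.05, against 9.28% of all probe sets. The compression of the values limits what can be read from their size.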

Other observations

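Among heme proteins outside the rule for naming, described after their values were seen, Cat, the catalase that breaks down hydrogen peroxide, was lower in all 4 iron-deficient livers than in every control, at -2.02 SDs (limma adjusted p = 0.371). Cyp2c6v1, a drug-metabolising P450, was higher than every control in all 4, at 2.44 SDs (limma adjusted p = 0.277). Cyp7a1, which starts bile acid synthesis, was likewise higher in all 4, at 2.37 SDs (limma adjusted p = 0.288). The heme exporter gene Flvcr1 differed by 1.27 SDs (limma adjusted p = 0.546), and Slc25a37, the iron importer of erythroid mitochondria, by -0.81 SDs (limma adjusted p = 0.721).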
